A study of Mus musculus with 8 samples.

Results

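The core circadian clock genes described here were Arntl, Clock, Per1, Per2, Per3, Cry1, Nr1d1, Nr1d2, Dbp and Tef, 10 of the 32285 genes listed in the files. They are known parts of the clock, taken by symbol with earlier results of these data at hand. For each gene, unique molecular identifiers (UMIs), which tag single RNA molecules, were summed per library within cells gated by a single lineage marker. The cells were the stromal vascular fraction of inguinal white adipose tissue of mice, the pellet that a digested fat pad yields without its floating adipocytes, captured in droplets (10x Genomics). There were 4 libraries of mice with free access to food (Ad-Lib 1, 3, 5 and 7) and 4 of mice on twice-a-night feeding, in which food comes as 2 nightly meals (TAN 2, 4, 6 and 8). The labels give the strain C57BL/6 (C57BL/6J in the study's text) and an age of 8 weeks for both groups, and name no transgene or deletion. The study's text describes older male mice for its single-cell experiment, and the age was not resolved here. The study's text describes the libraries as replicates by animal, which the labels do not state, and p-values measure the spread between libraries.

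The clock is a feedback loop. The proteins of Arntl (BMAL1) and Clock form a dimer that activates genes carrying an E-box, among them the Per and Cry repressors, whose proteins in turn inhibit that dimer. Nr1d1 and Nr1d2 (REV-ERB alpha and beta) are nuclear receptors that repress Arntl through RORE sites, and Dbp and Tef are PAR bZIP factors that bind D-boxes in output genes and in Per genes. Per1 is also known to be induced acutely by glucocorticoid and cAMP signalling. In fat, feeding time is a known cue for this loop. The question asked of these libraries was whether timed meals moved the loop alike in each lineage. The study's general methods place collection of tissues at midnight without naming these libraries, and no label separates the libraries by collection time. A level at a single time cannot give a phase, so only levels and their differences are described.

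The promoters show which of these elements lie close to the start of each gene. RefSeq windows of 250 bases before to 50 bases after each start (GRCm38.p6) were found for 9 members, 14 windows in all, and Per2 had none in the table. Searched on both strands, the E-box CACGTG was found in windows of Per1, Cry1 and Tef, and in 7.15% of 32851 promoters. The D-box, searched as TTATGTAA and TTACGTAA, was found 2 times in the window of Per3, and in 1.06% of promoters. The RORE core, searched as TAGGTCA and TGGGTCA, was found in a window of Arntl, 30 bases past its start, and in 6.45% of promoters. These stretches are shown since Per1 is the member that differed between the feeding groups, and Cry1, Tef and Per3 are members with a matched element that did not pass the test. Capitals mark the matched element.
Per1, chr11:69098743-69098828, plus strand, E-box 166 bases before the start: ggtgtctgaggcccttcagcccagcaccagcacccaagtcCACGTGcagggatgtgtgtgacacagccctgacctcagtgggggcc
Cry1, chr10:85185069-85185154, minus strand, E-box 60 bases before the start: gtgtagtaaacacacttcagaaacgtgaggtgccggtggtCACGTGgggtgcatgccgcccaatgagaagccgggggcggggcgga
Tef, chr15:81811236-81811321, plus strand, E-box 138 bases before the start of its downstream promoter: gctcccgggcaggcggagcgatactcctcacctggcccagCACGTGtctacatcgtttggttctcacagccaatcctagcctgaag
Per3, chr4:151044776-151044910, minus strand, D-boxes 205 and 158 bases before the start: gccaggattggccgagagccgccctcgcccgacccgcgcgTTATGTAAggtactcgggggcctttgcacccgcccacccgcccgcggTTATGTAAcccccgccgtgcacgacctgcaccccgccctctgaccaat
A match is a description of letters, and a window without one says nothing about binding elsewhere.

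In GENCODE M21 on GRCm38, Per1 spans chromosome 11, 69095217 to 69109960, and Per2 chromosome 1, 91415982 to 91459324. Exons of Nr1d1 overlap those of Thra, exons of Dbp those of Sphk2, exons of Tef those of Gm17597 and exons of Arntl those of Gm45355, in each case on the opposite strand. Whether counting used strand is not given in the sources used here, so reads of these 4 members cannot be told apart from those of the partner with certainty. No exon of another gene overlaps Per1 or Per2.

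The tables held 44427 barcodes and 232345333 UMIs, 25320800 to 37140950 per library. Of 36370 cells kept, 22235 carried exactly 1 of the lineage markers and 7662 carried several. The gates held 7466 cells for Pdgfra (adipocyte progenitors), 4960 for Pecam1 (endothelium), 4299 for C1qa (macrophages), 2099 for Cd3e (T cells), 1802 for Cd79a (B cells) and 1609 for Rgs5 (pericytes). Within the Pdgfra gate, 2856 cells fell in the Dpp4/Pi16 subset, 2208 in the Icam1/Col15a1 subset and 1771 in the F3/Gdf10 subset. Of the markers listed for each cell type, all were highest in their own gate except Ebf1 of the B cell list, with a mean over libraries of 952 CPM in the Cd79a gate against 970 CPM in the Rgs5 gate. The lists include the gating markers and the marker pairs of the subsets, whose place was set by the gating itself, so only the other markers inform. CPM is the UMIs of a gene per 1000000 UMIs of the gate in that library. The Rgs5 gate was not pure, with a summed level of 6 endothelial genes of 882 to 1233 CPM and of 6 adipocyte genes of 1877 to 4172 CPM in the Ad-Lib libraries. The Cd79a gate held 19 to 445 cells in Ad-Lib libraries and 85 to 486 in TAN libraries, which limits its values. The Cd3e gate held 54 to 240 cells in Ad-Lib and 126 to 795 in TAN libraries. Its mean share of kept cells was 2.55% in Ad-Lib and 8.18% in TAN libraries, and that of the Pdgfra gate was 26.0% and 16.1%. Whether the mix of cells within a gate differed between the groups was not tested. Cells of TAN libraries were shallower, with a mean over libraries of the median UMIs per cell of 4632.9 against 5744.1, and the mean over libraries of the median mitochondrial share of kept cells was higher, 3.05% against 2.08%. By library this share was 2.687% to 3.643% in TAN and 1.759% to 2.385% in Ad-Lib libraries, without overlap. Its part in the differences given below was not tested. No pair of libraries shared more than 16 barcodes.

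Levels of the members differed by lineage before any question of feeding. In the Ad-Lib libraries Per3, Nr1d1, Nr1d2, Dbp and Tef were highest in the Pdgfra gate, and for each of the 5 genes the 4 libraries lay above all 4 libraries of the next lineage. Per3, whose protein is the Per family member that is least needed for rhythm, was at 128 ± 19.3 CPM (SD, n = 4) in the Pdgfra gate and at 47.0 ± 5.27 CPM in the Pecam1 gate, the next in order. Dbp was at 94.3 ± 11.1 CPM in the Pdgfra gate, 63.7 ± 5.76 CPM in the C1qa gate and 6.59 ± 2.51 CPM in the Cd79a gate. The same 5 genes were highest in the Pdgfra gate of the TAN libraries, again apart from the next lineage.

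Arntl had another order. It was at 18.2 ± 5.25 CPM in the Cd3e gate of Ad-Lib libraries and at 12.4 ± 6.67 CPM in the Cd79a gate, whose range overlapped those of the Cd3e and Pecam1 gates. The lowest value of the Cd79a gate, 3.89 CPM, was 1 UMI in Ad-Lib 1, and the other Ad-Lib libraries were at 10.3 to 18.7 CPM. It was lowest in the Pdgfra gate, at 2.53 ± 1.29 CPM, although the ranges of the Pecam1, C1qa, Rgs5 and Pdgfra gates overlapped from each to the next. Per2 was at 38.3 ± 13.6 CPM in the Pecam1 gate, 34.8 ± 2.79 CPM in the Pdgfra gate, with overlapping ranges, and 26.1 ± 3.94 CPM in the C1qa gate. The Cd3e gate held 0 to 3 UMIs of Per2 in each Ad-Lib library. Clock was highest in the Pecam1 gate, at 63.9 ± 5.74 CPM, and lowest in the Cd79a gate, at 18.7 ± 2.25 CPM. Cry1, a transcriptional repressor, was highest in the Pecam1 gate too, at 23.2 ± 3.07 CPM, with a range that overlapped that of the Rgs5 gate.

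RNA set free by broken cells enters all droplets of a library. A fixed set of 4 stromal genes (Col1a1, Col3a1, Dcn and Gsn) was read for this. In the other gates they stood at 0.276% to 5.43% of their level in the Pdgfra gate, as group means. This share cannot tell free RNA from doublets or from the gated cells' own expression of these genes. Over the libraries with a UMI of the gene, stromal RNA at that share would account for 9.90% to 46.3% of the Per2 measured in the Cd3e gate of Ad-Lib libraries and for 1.72% to 4.65% in TAN libraries. For Per3 in that gate it was 10.2%, 19.5% and 33.5% in Ad-Lib 5, 7 and 3, 171% in Ad-Lib 1, where Per3 was 1 UMI, and 3.39% to 13.9% in TAN libraries. For Nr1d1 in the Rgs5 gate it was 29.2% to 82.6% in Ad-Lib and 11.3% to 88.2% in TAN libraries. The share of Per1 it would account for was at most 6.01% as a group mean, in the Rgs5 gate of TAN libraries.

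Within the Pdgfra gate 3 subsets were read apart, which are cells of that same gate. Dpp4 and Pi16 mark the less committed interstitial progenitors, Icam1 and Col15a1 the committed preadipocytes, and F3 and Gdf10 a regulatory population. Nr1d1 was at 11.8 ± 2.11 CPM (SD, n = 4) in the Dpp4/Pi16 subset of Ad-Lib libraries, 45.1 ± 13.0 CPM in the Icam1/Col15a1 subset and 42.6 ± 10.0 CPM in the F3/Gdf10 subset. Dbp had the same order, at 46.2 ± 10.1, 126 ± 15.6 and 119 ± 26.4 CPM. For Nr1d1, Nr1d2, Dbp, Tef and Per3 all 4 Ad-Lib libraries of the Dpp4/Pi16 subset lay below those of the other 2 subsets, and so did all 4 TAN libraries. Arntl stood the other way round, at 2.58 to 8.55 CPM in the Dpp4/Pi16 subset of Ad-Lib libraries and 0.604 to 1.49 CPM in the Icam1/Col15a1 subset. The latter rests on 2 to 6 UMIs per library, and Arntl had too few counts to be tested in the Icam1/Col15a1 and F3/Gdf10 subsets. Its F3/Gdf10 subset, at 0 to 3.72 CPM, overlapped both. Cry1 had overlapping ranges in the Dpp4/Pi16 and Icam1/Col15a1 subsets, and so had Clock in the Ad-Lib libraries. In TAN libraries Clock was at 46.8 to 57.0 CPM in the Dpp4/Pi16 and 35.7 to 46.2 CPM in the Icam1/Col15a1 subset.

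**Figure D1:**
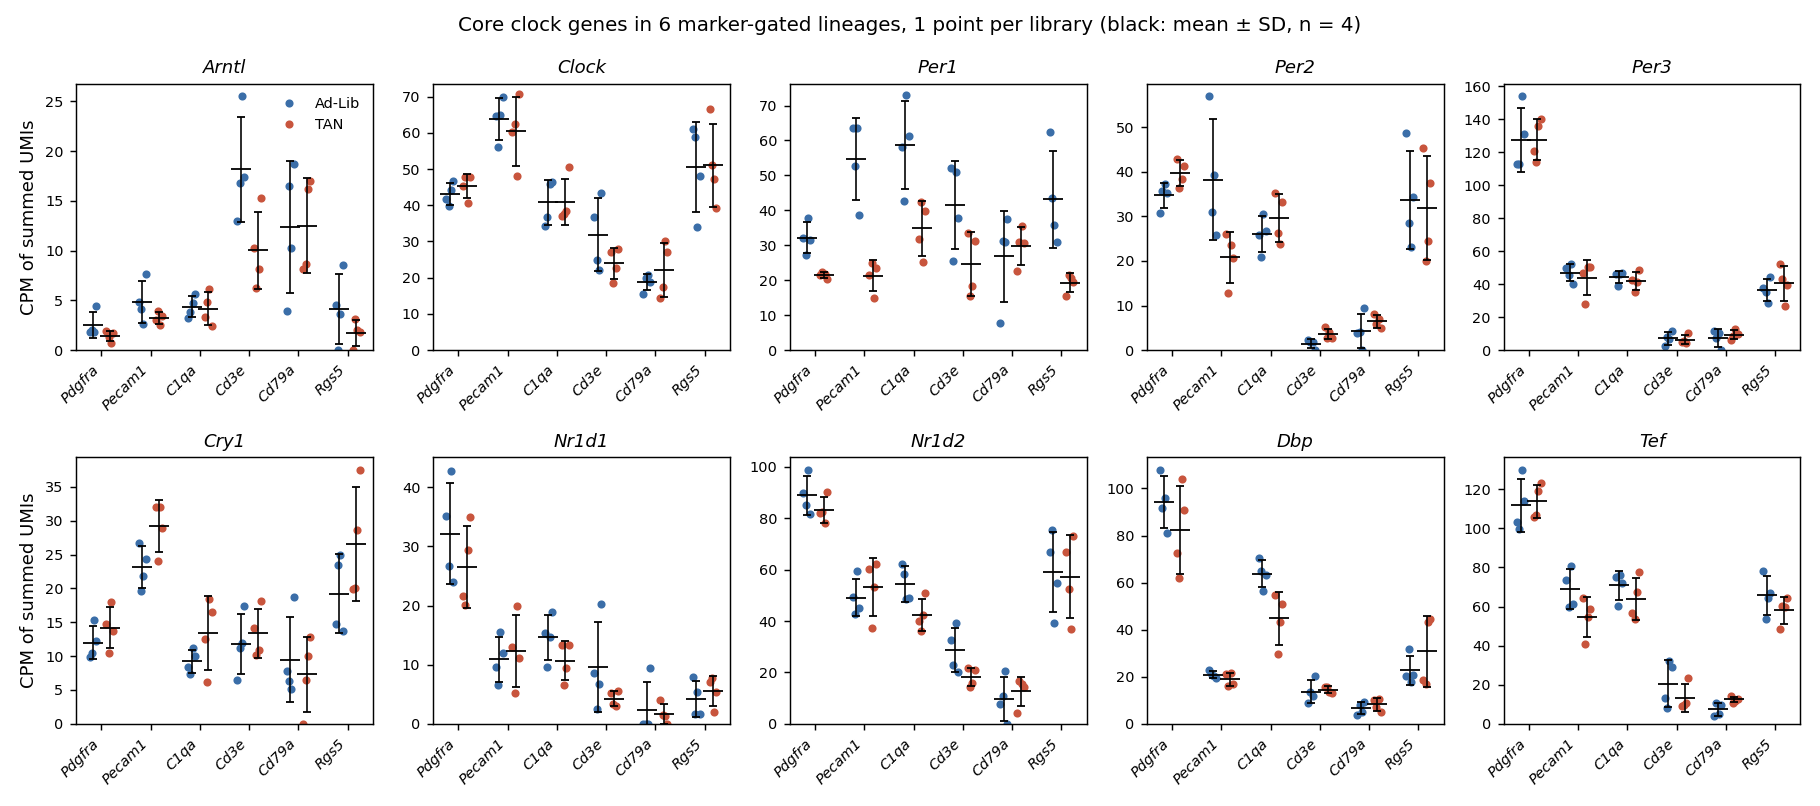
Level of each core clock gene, as CPM of summed UMIs on the vertical axis, in 6 marker-gated lineages, with 1 point per Ad-Lib (blue) and TAN (red) library and the mean ± SD (n = 4) in black. Per3, Nr1d1, Nr1d2, Dbp and Tef stand highest in the Pdgfra gate, Arntl in the Cd3e and Cd79a gates, and only Per1 shows separate groups in the Pdgfra, Pecam1, C1qa and Rgs5 gates together.

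TAN was compared with Ad-Lib in each gate with edgeR's quasi-likelihood test on the summed UMIs. Calls needed both a 1.5-fold change or more and an adjusted p (Benjamini-Hochberg, over all genes of the gate) below 0.05. Over the 10 members and 9 populations, 78 of 90 pairs had enough counts to be tested. The call was made in 3 of them, all of Per1, all lower in TAN. An unadjusted p under 0.05 was reached in 16 pairs, and DESeq2 called 4 pairs. Without Per1 it was reached in 9 of 69 pairs, near the 12.5% of all tests over the 9 populations, so that this count is no result about those members. By population, the share of all genes with such a p was 13.9% in Pdgfra, 13.7% in Pecam1, 13.5% in C1qa, 22.0% in Cd3e, 1.84% in Cd79a and 10.1% in Rgs5, and 10.1% in Dpp4/Pi16, 13.9% in Icam1/Col15a1 and 11.3% in F3/Gdf10. In the Pdgfra gate 1 of 10 members was called against 0.854% of all 12062 genes tested, and in the Pecam1 gate 1 of 10 against 0.622% of 10457. In the C1qa gate none of 10 was called with edgeR (0.208% of 10101 genes), where 4 had an unadjusted p under 0.05 and DESeq2 called 1. None of 7 was called in the Cd3e gate (5.78% of 7469 genes), where 3 had an unadjusted p under 0.05, and none of 8 in the Rgs5 gate (0.839% of 6794 genes), where 1 did, with no call by DESeq2 in either. In the Cd79a gate none of 5 tested members and 0% of 6628 genes were called with edgeR, while 122 genes and no member had an unadjusted p under 0.05 and DESeq2 called none. In the subsets the background was 0.337% of 10398 genes for Dpp4/Pi16, 1.33% of 10380 for Icam1/Col15a1 and 1.03% of 10028 for F3/Gdf10, and the members called were 0 of 10, 1 of 9 and 0 of 9. In the Dpp4/Pi16 and the F3/Gdf10 subsets 1 member each had an unadjusted p under 0.05, and DESeq2 called none.

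Per1, a period gene known for rapid induction by outside signals, was lower in TAN progenitors. In the Pdgfra gate it was at 32.2, 27.1, 37.8 and 31.4 CPM in Ad-Lib 1, 3, 5 and 7 and at 21.5, 22.3, 21.9 and 20.4 CPM in TAN 2, 4, 6 and 8. The groups did not overlap, as was the case for 6.83% of all genes in this gate, and the TAN libraries lay close together. Its log2 difference, TAN over Ad-Lib, was -0.60 ± 0.09 (SE; 95% interval -0.80 to -0.41; edgeR adjusted p = 0.00844). This difference is close to the 1.5-fold limit: without Ad-Lib 1, Ad-Lib 5 or TAN 8 it was -0.57, -0.55 and -0.56, with adjusted p of 0.021, 0.013 and 0.0305, and fell short of the fold.

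Endothelium had lower Per1 in TAN as well. In the Pecam1 gate Per1 was at 63.5, 52.7, 63.5 and 38.7 CPM in the Ad-Lib libraries and at 21.5, 24.9, 14.9 and 23.6 CPM in the TAN libraries. Every Ad-Lib library was above every TAN library, and 6.85% of all genes there had separate groups. Here the log2 difference was -1.33 ± 0.20 (95% interval -1.77 to -0.89; edgeR adjusted p = 0.015). Without Ad-Lib 1 the adjusted p was 0.0787 and without Ad-Lib 5 it was 0.0506, at differences of -1.23 and -1.27. Markers of other cells were read in this gate too. The summed level of 6 T cell genes, 5 of them detected since the gate leaves out Cd3e, was 14.5 to 212 CPM in Ad-Lib and 73.3 to 683 CPM in TAN libraries. For 3 mast cell genes, all detected, it was 21.9 to 41.3 CPM against 17.5 to 417 CPM, and both sets had overlapping ranges. The groups were apart for the 6 genes of the Dpp4 subset, at 236 to 305 CPM in Ad-Lib and 314 to 383 CPM in TAN libraries, and for the 5 genes of the Icam1 subset, at 1396 to 1742 CPM against 910 to 1377 CPM, all of them detected. No gene of these 4 sets was called, and their part in the result was not tested.

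In macrophages Per1 did not pass the main test. In the C1qa gate it was at 58.0, 42.6, 73.0 and 61.3 CPM in Ad-Lib and at 31.9, 42.4, 25.1 and 39.8 CPM in TAN libraries. The groups were apart by the narrow gap between Ad-Lib 3 and TAN 4, against 5.45% of all genes with separate groups. Its log2 difference was -0.71 ± 0.16 (95% interval -1.06 to -0.36; edgeR adjusted p = 0.0928). DESeq2 gave an adjusted p of 0.0173, and edgeR gave 0.0343 when 2 UMIs of C1qa were asked for and 0.0163 without the filter on low counts. In this gate the summed level of 6 T cell genes, 5 of them detected, was 13.5 to 29.2 CPM in Ad-Lib and 25.2 to 240 CPM in TAN libraries, and that of 3 red cell genes, all detected, was 234 to 593 CPM and 60.3 to 4681 CPM. Both ranges overlapped and none of these genes was called, and their part in the results of the C1qa gate was not tested.

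Pericytes gave few counts. In the Rgs5 gate Per1 rested on 10 to 55 UMIs per library, at 62.4, 43.6, 35.7 and 30.8 CPM in Ad-Lib and 15.6, 21.6, 20.5 and 19.6 CPM in TAN libraries. The groups did not overlap, against 5.68% of all genes in this gate. A log2 difference of -1.17 ± 0.28 was found (95% interval -1.76 to -0.57; edgeR adjusted p = 0.0701). Under 3 alternatives it passed: 0.0108 without the filter on low counts, 0.00287 when cells with other markers were allowed, and 0.05 at the wider mitochondrial limit. The summed level of 6 B cell genes, 4 of them detected, was apart in this gate, at 984 to 1439 CPM in Ad-Lib and 640 to 972 CPM in TAN libraries. Most of it was Ebf1, at a mean over libraries of 970 CPM, while Ms4a1 and Pax5 were at 1.24 and 0.769 CPM, so it says little about B cells. The ranges overlapped for 6 T cell genes, 5 of them detected, at 0 to 45.3 CPM against 2.84 to 373 CPM, and for 3 red cell genes, all detected, at 2191 to 14673 CPM against 6297 to 18697 CPM. No gene of these sets was called, and their part in the result was not tested.

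No call was made in lymphocytes. In the Cd3e gate Per1 was at 52.0, 25.5, 51.0 and 37.7 CPM in Ad-Lib and at 33.5, 15.5, 18.2 and 31.3 CPM in TAN libraries, which overlapped. The log2 difference was -0.68 ± 0.27 (95% interval -1.27 to -0.09; edgeR adjusted p = 0.161), and -0.92 with an adjusted p of 0.0431 without Ad-Lib 3. The stromal share moved with the groups in this gate, at 0.452% to 3.26% in Ad-Lib and 0.157% to 0.428% in TAN libraries. The 6 T cell genes themselves were apart, at a summed 3122 to 3691 CPM in Ad-Lib and 3831 to 4011 CPM in TAN. So were the Icam1 subset genes, at 81.2 to 119 CPM against 33.5 to 59.6 CPM. For 3 mast cell genes it was 6.8 to 20.3 CPM against 0.33 to 3.87 CPM. The 6 macrophage genes, 5 of them detected, overlapped narrowly, at 27.3 to 184 CPM against 8.58 to 28.5 CPM. Of the progenitor genes 2 were called, and of the macrophage, Dpp4 subset and Icam1 subset genes 1 each. The summed level of 3 red cell genes, all detected and all called higher in TAN, was 10.8 to 59.5 CPM in Ad-Lib and 32.3 to 949 CPM in TAN libraries, ranges that overlapped. Their part in the results of the Cd3e gate was not tested. None of the 7 tested members had separate groups in this gate, against 11.7% of all genes. In the Cd79a gate the log2 difference of Per1 was 0.02 ± 0.24 (95% interval -0.51 to 0.55; edgeR adjusted p = 1). That interval is wide, and the Ad-Lib libraries held 2 to 55 Per1 UMIs. Ad-Lib 1 stood apart in the Cd79a gate: its 21 cells had a median of 14789 UMIs, against 3071 to 3914 in the other 7 libraries, and a summed level of 6 B cell genes of 1680 CPM, against 3893 to 6780 CPM. Per1 was at 7.78 CPM in Ad-Lib 1 and at 22.5 to 37.4 CPM in the others, and without it the difference was -0.06 ± 0.23 (edgeR adjusted p = 1). No member had separate groups there, against 1.95% of all genes.

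Among the progenitor subsets Per1 was called in 1. In the Icam1/Col15a1 subset Per1 was at 35.4, 27.2, 36.2 and 32.3 CPM in Ad-Lib and at 16.7, 13.9, 14.1 and 18.6 CPM in TAN libraries. No TAN library reached the lowest Ad-Lib library, and 7.33% of all genes there had separate groups. Per1 had a log2 difference of -1.05 ± 0.14 (95% interval -1.35 to -0.75; edgeR adjusted p = 0.00114), and the call stood whichever library was left out, with adjusted p of 0.00131 to 0.00644. When cells with UMIs of another subset's markers were left out, 17 to 78 cells per library remained and Per1 had too few counts to be tested.

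In the Dpp4/Pi16 subset Per1 was at 33.9, 29.2, 40.9 and 30.8 CPM in Ad-Lib and at 30.7, 31.2, 27.3 and 22.7 CPM in TAN libraries. These ranges overlapped, and the difference was -0.26 ± 0.14 on the log2 scale (95% interval -0.55 to 0.03; edgeR adjusted p = 0.578). In the F3/Gdf10 subset it was -0.70 ± 0.18 (95% interval -1.09 to -0.32; edgeR adjusted p = 0.0702), with 24.4 to 38.7 CPM in Ad-Lib and 13.9 to 27.3 CPM in TAN libraries, and no member had separate groups there, against 6.37% of all genes. It passed without TAN 6, at an adjusted p of 0.0379. The intervals of the Dpp4/Pi16 and Icam1/Col15a1 subsets do not meet, but the difference between subsets itself was not tested.

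**Figure D2:**
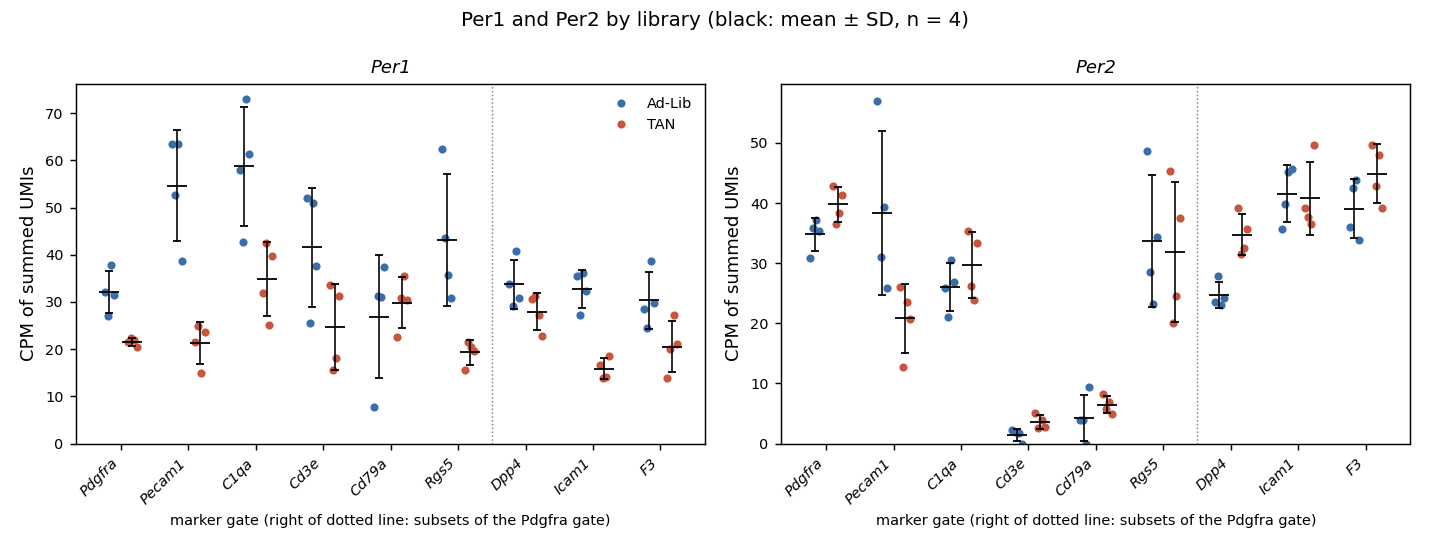
Level of Per1 (left) and Per2 (right), as CPM of summed UMIs on the vertical axis, per Ad-Lib (blue) and TAN (red) library in 6 lineages and, right of the dotted line, 3 subsets of the Pdgfra gate, with the mean ± SD (n = 4) in black. The TAN points of Per1 lie below all Ad-Lib points in the Pdgfra, Pecam1, C1qa and Rgs5 gates and the Icam1/Col15a1 subset, with a call in Pdgfra, Pecam1 and Icam1/Col15a1, and those of Per2 lie above them in the Dpp4/Pi16 subset and, on too few UMIs to be tested, in the Cd3e gate, with no call for Per2 in any population.

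Per2 had differences of either sign. In the Pecam1 gate it was at 57.0, 31.1, 39.3 and 25.8 CPM in Ad-Lib and at 26.1, 12.8, 23.6 and 20.7 CPM in TAN libraries. Only Ad-Lib 7 and TAN 2 overlapped, and the log2 difference was -0.85 ± 0.27 (95% interval -1.44 to -0.27; edgeR adjusted p = 0.183). Progenitors of the Pdgfra gate held Per2 at 30.8, 35.8, 37.2 and 35.3 CPM in Ad-Lib and at 42.9, 36.5, 38.4 and 41.4 CPM in TAN libraries, a log2 difference of 0.18 ± 0.08 (95% interval 0.01 to 0.35; edgeR adjusted p = 0.322). The groups met between Ad-Lib 5 and TAN 4, and neither of these single-lineage differences passed the test.

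The difference between lineages was tested directly, with all 6 lineages in one edgeR fit, the library as a block and the 5 lineage-by-TAN terms tested together. Of the members, 1 of 10 was called, against 2.79% of 12850 genes, and 3 of 10 had an unadjusted p under 0.05, against 16.9% of genes. The member was Per2 (edgeR adjusted p = 0.0136). Its log2 difference in the Pecam1 gate minus that in the Pdgfra gate was -0.99 ± 0.21, and in the C1qa gate minus that in the Pdgfra gate 0.09 ± 0.21. The terms of the Cd3e, Cd79a and Rgs5 gates against the Pdgfra gate were 1.14 ± 0.66, 0.44 ± 0.58 and -0.22 ± 0.29, the first resting on the few Per2 UMIs of the Cd3e gate. The call was lost without the Cd3e gate (edgeR adjusted p = 0.0961), an alternative chosen after seeing the data. It was also lost without Ad-Lib 1 (edgeR adjusted p = 0.101), without TAN 4 (edgeR adjusted p = 0.14) and without TAN 8 (edgeR adjusted p = 0.0565), and stood without the Cd79a gate (edgeR adjusted p = 0.0151). For Per1 the same test gave an adjusted p of 0.0626, with a Pecam1-minus-Pdgfra term of -0.69 ± 0.22, a Cd79a-minus-Pdgfra term of 0.62 ± 0.30 and terms of -0.07 ± 0.21, 0.03 ± 0.26 and -0.55 ± 0.32 for C1qa, Cd3e and Rgs5. Per1 passed under 4 alternatives, at 0.0351 without the filter on low counts, 0.0334 with 2 marker UMIs, 0.00621 with other markers allowed and 0.0487 at the wider mitochondrial limit, and gave 0.14 without the Cd79a gate, 0.0961 without the Cd3e gate and 0.218 without Ad-Lib 1. Of the other 8 members Dbp had the lowest adjusted p, 0.251 (edgeR).

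In the Dpp4/Pi16 subset Per2 was at 23.6, 27.9, 23.0 and 24.2 CPM in Ad-Lib and at 39.1, 31.6, 32.5 and 35.6 CPM in TAN libraries. The groups did not overlap, against 4.57% of all genes in this subset. Its log2 difference was 0.51 ± 0.12 (95% interval 0.25 to 0.76; edgeR adjusted p = 0.0819), which missed the threshold. In the C1qa gate it was 0.23 ± 0.14 (95% interval -0.08 to 0.55), and in the Icam1/Col15a1 subset -0.03 ± 0.11 (95% interval -0.27 to 0.20). The Cd3e gate held 1, 3, 1 and 0 UMIs of Per2 in Ad-Lib and 4, 8, 19 and 4 in TAN libraries, too few to be tested. In CPM every TAN library was above every Ad-Lib library there, with the stromal shares given above. For Ad-Lib 7 the count of 0 allows up to 8.70 CPM.

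Per3 was tested in 7 populations, with log2 differences from -0.08 in the Pecam1 gate to 0.20 in the Rgs5 gate and adjusted p of at least 0.817 (edgeR). In the progenitors of the Pdgfra gate it was at 113, 113, 154 and 131 CPM in Ad-Lib and at 121, 114, 136 and 140 CPM in TAN libraries. These overlap throughout, and the 95% interval of the log2 difference, -0.20 to 0.15, leaves out a 1.5-fold change in either direction.

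Cry1 had a positive difference in each of the 8 populations tested, which include the Pdgfra gate and its 3 subsets and so share cells. In the C1qa gate it was at 8.37, 7.30, 11.2 and 10.0 CPM in Ad-Lib and at 12.6, 6.12, 18.4 and 16.5 CPM in TAN libraries. TAN 4 was the lowest of all, and the log2 difference was 0.54 ± 0.25 (95% interval 0.01 to 1.08; edgeR adjusted p = 0.366). In the Pecam1 gate, where Cry1 was at 19.6 to 26.7 CPM in Ad-Lib and 24.0 to 32.1 CPM in TAN libraries, it was 0.38 ± 0.14 (95% interval 0.06 to 0.69; edgeR adjusted p = 0.283). The lowest adjusted p of Cry1 in any population was that of the Pecam1 gate, so it was not called.

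Of the activators, Arntl had a negative difference in all 6 populations in which it was tested and passed in none. These include the Pdgfra gate and its Dpp4/Pi16 subset, which share cells. In the C1qa gate the difference was -0.05 ± 0.31, and -0.22 to 0.17 with 1 library left out. In the Cd3e gate Arntl was at 13.0, 16.8, 25.5 and 17.4 CPM in Ad-Lib and at 10.3, 6.27, 8.16 and 15.3 CPM in TAN libraries, on 6 to 39 UMIs each. TAN 8 lay within the Ad-Lib range, and the log2 difference was -0.86 ± 0.30 (95% interval -1.51 to -0.21; edgeR adjusted p = 0.106). Progenitors of the Pdgfra gate held it at 1.86, 2.00, 1.81 and 4.47 CPM in Ad-Lib and at 1.91, 1.29, 0.748 and 1.73 CPM in TAN libraries, with a log2 difference of -0.74 ± 0.37 (95% interval -1.54 to 0.06; edgeR adjusted p = 0.402). Ad-Lib 7 stood apart there, and without it the difference was -0.36. Ad-Lib 7 had the highest Arntl of all 8 libraries in 4 of 6 lineages and was among the top 2 in all 6.

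Clock, the partner of Arntl, was not called in any of 9 populations, with log2 differences from -0.24 in the Cd3e gate to 0.26 in the F3/Gdf10 subset. For the Pdgfra gate its values were 41.7, 39.7, 44.2 and 46.6 CPM in Ad-Lib and 45.4, 47.7, 40.6 and 47.8 CPM in TAN libraries. The 95% interval of its log2 difference there was -0.11 to 0.23, and in the C1qa gate -0.19 to 0.28. The lowest adjusted p of Clock was 0.462 (edgeR, F3/Gdf10 subset).

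No call was made for the REV-ERB genes. Nr1d2 in the C1qa gate was at 62.3, 58.4, 48.5 and 48.9 CPM in Ad-Lib and at 40.1, 36.3, 42.3 and 51.0 CPM in TAN libraries. Only TAN 8 entered the Ad-Lib range, and the log2 difference was -0.36 ± 0.14 (95% interval -0.65 to -0.06; edgeR adjusted p = 0.286). In the Cd3e gate Nr1d2 differed by -0.59 ± 0.22 (edgeR adjusted p = 0.136), and in the Pdgfra gate by -0.12 ± 0.08 (95% interval -0.28 to 0.05; edgeR adjusted p = 0.548). Nr1d1 was tested in 6 populations, with log2 differences from -0.41 in the C1qa gate to 0.20 in the Pecam1 gate and a lowest adjusted p of 0.474 (edgeR). Nr1d1 in the Pdgfra gate was at 35.1, 26.7, 42.8 and 23.9 CPM in Ad-Lib and at 21.6, 20.1, 29.4 and 35.0 CPM in TAN libraries, so that the spread between libraries of a group was as wide as the gap between groups. Its log2 difference there was -0.32 ± 0.18 (95% interval -0.71 to 0.07; edgeR adjusted p = 0.478).

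Among the PAR bZIP factors, Dbp had separate groups in 1 population. In the C1qa gate it was at 70.3, 65.1, 56.4 and 63.1 CPM in Ad-Lib and at 54.9, 29.7, 43.4 and 51.0 CPM in TAN libraries. TAN 4 was far the lowest, and the log2 difference was -0.49 ± 0.16 (95% interval -0.83 to -0.14; edgeR adjusted p = 0.198), which did not pass. The Pdgfra gate had Dbp at 108, 91.9, 96.1 and 81.2 CPM in Ad-Lib and at 72.6, 61.8, 104 and 90.9 CPM in TAN libraries, with a log2 difference of -0.24 ± 0.13 (edgeR adjusted p = 0.463). TAN 4 had the lowest Dbp of all libraries in 4 of 6 lineages and the lowest Nr1d1 and Nr1d2 in 3 each. Tef was not called in any of 9 populations. Its level in the Pdgfra gate was 99.8 to 130 CPM in Ad-Lib and 106 to 123 CPM in TAN libraries, and the log2 difference of 0.00 ± 0.07 had a 95% interval of -0.15 to 0.15. Its lowest adjusted p was 0.38 (edgeR, Pecam1 gate).

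**Figure D3:**
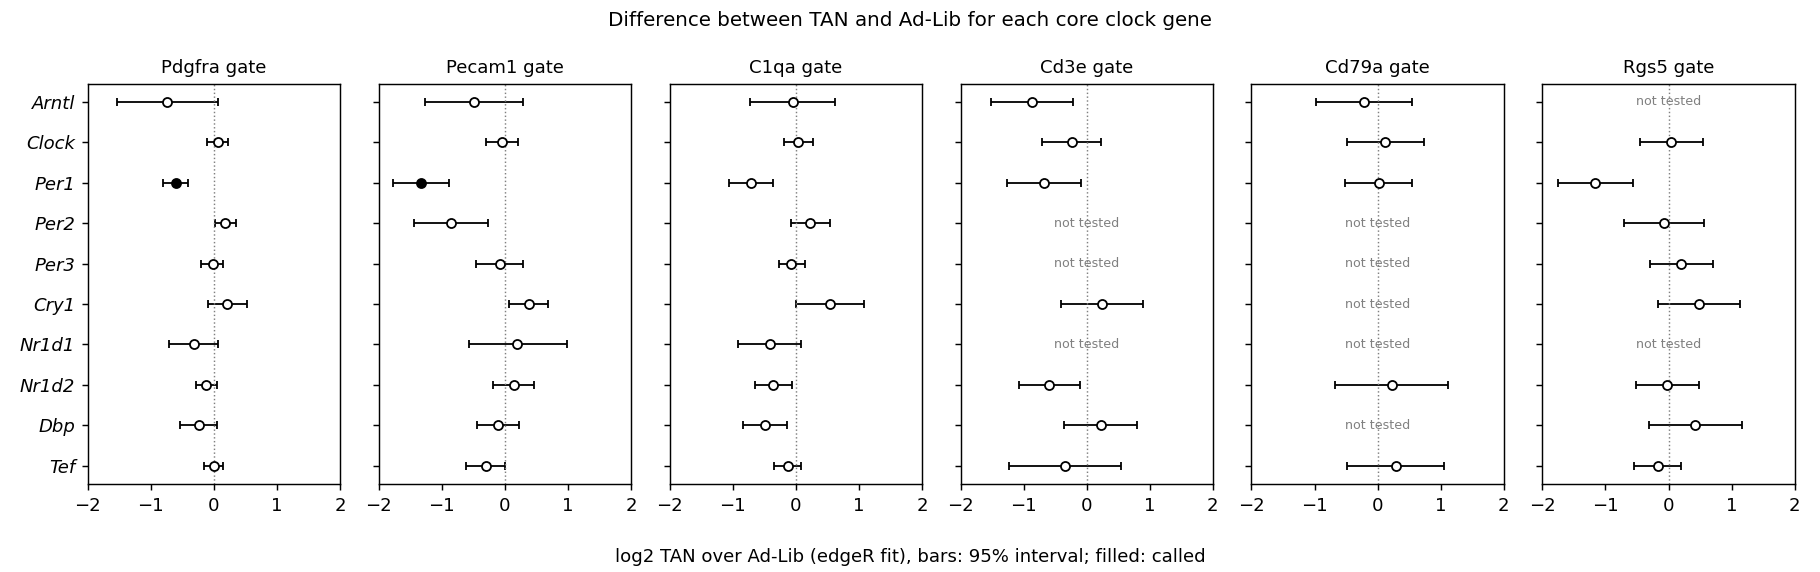
Log2 of TAN over Ad-Lib from the edgeR fit on the horizontal axis, with 95% intervals, for each core clock gene (rows) in the 6 lineages (panels), 4 libraries per group. Filled points passed the call, which are Per1 in the Pdgfra gate (-0.60) and the Pecam1 gate (-1.33), and most intervals of the other members include 0.

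The rest of the clock was read from a list of 17 genes, of which 15 were tested in the Pdgfra gate and 6 to 14 in the other populations. None was called with edgeR in any population, where the background shares are those given above. In the Pdgfra, Pecam1 and Cd3e gates and the Dpp4/Pi16 and Icam1/Col15a1 subsets 3 of them each had an unadjusted p under 0.05, 2 in F3/Gdf10, 1 each in C1qa and Rgs5 and 0 in Cd79a, and DESeq2 called 1 each in the Pdgfra and Cd3e gates. The lowest edgeR values were those of Rora in the Cd3e gate and Nfil3 in the Pdgfra gate, which are named after their values were seen. Rora, a nuclear receptor that activates Arntl through RORE sites, was at 73.7, 52.8, 107 and 110 CPM in Ad-Lib and at 51.6, 35, 22 and 57.6 CPM in TAN libraries, with a log2 difference of -0.94 ± 0.28 (edgeR adjusted p = 0.0629; DESeq2 adjusted p = 0.0479). Nfil3 is a repressor that competes with the PAR bZIP factors for D-boxes. Its Pdgfra gate values were 11.5, 11.2, 7.24 and 15.2 CPM in Ad-Lib and 6.97, 5.98, 6.23 and 5.99 CPM in TAN libraries. The groups did not overlap, and the log2 difference was -0.86 ± 0.21 (edgeR adjusted p = 0.0638; DESeq2 adjusted p = 0.0131). Its groups were also apart in the Icam1/Col15a1 subset, at -1.16 ± 0.34 (edgeR adjusted p = 0.102), and in the F3/Gdf10 subset, at -1.36 ± 0.35 (edgeR adjusted p = 0.0654), which are parts of the Pdgfra gate. In the Pecam1 gate Nfil3 had a positive difference, 0.57 ± 0.25 (edgeR adjusted p = 0.344). Npas2, a relative of Clock, did not pass the filter in the fit over lineages, and none of the 16 genes tested there was called.

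Glucocorticoid-responsive genes were read beside Per1. This list was chosen with earlier results of these data known, and the part of glucocorticoid signalling was not tested. Of 6 genes, all 6 tested in the Pdgfra gate had an unadjusted p under 0.05, against 13.9% of all genes, and a negative difference. The median log2 difference was -0.63 against 0.01 over all genes, and 1 was called, against 0.854% of all genes. This was Klf9, a Kruppel-like repressor induced by glucocorticoids, at 378, 402, 644 and 419 CPM in Ad-Lib and at 282, 270, 287 and 309 CPM in TAN libraries. The groups did not overlap, and the log2 difference was -0.70 ± 0.12 (edgeR adjusted p = 0.015). Klf9 was also called in the Rgs5 gate, at -0.75 ± 0.14 (edgeR adjusted p = 0.0308), and in the Icam1/Col15a1 and F3/Gdf10 subsets, at -0.74 and -0.68. In the Pecam1 gate Ddit4, an inhibitor of mTORC1, was called, at 62.6, 44.2, 76.7 and 59.8 CPM in Ad-Lib and 30.9, 25.2, 24.7 and 24.6 CPM in TAN libraries. Its log2 difference was -1.15 ± 0.15 (edgeR adjusted p = 0.00639).

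Tsc22d3, which encodes GILZ and is a direct target of the glucocorticoid receptor, was called in the C1qa gate. It was at 255, 208, 278 and 234 CPM in Ad-Lib and at 116, 138, 144 and 178 CPM in TAN libraries, with a log2 difference of -0.74 ± 0.11 (edgeR adjusted p = 0.0154), beside the T cell and red cell levels of this gate given above. It was also called in the Cd3e gate, at -0.73 ± 0.19 (edgeR adjusted p = 0.0423), and in the Icam1/Col15a1 subset, where Fkbp5, a chaperone of the receptor, was called as well at -0.82 ± 0.19 (edgeR adjusted p = 0.0323). In the Dpp4/Pi16 subset none of the 6 was called with edgeR (0.337% of all genes) or DESeq2. All differences were negative there, and 3 had an unadjusted p under 0.05, against 10.1% of all genes. Klf9, at -0.56 ± 0.10 with an edgeR adjusted p of 0.0255, fell short of the fold there. In the Cd79a gate none of 3 was called by either tool and none had an unadjusted p under 0.05, against 1.84% of all genes.

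Immediate early genes, which rise within minutes of stimulation and also during tissue digestion, were read in the same way. Their list too was chosen with earlier results of these data known. In the Cd3e gate 6 of 9 were called, against 5.78% of all 7469 genes tested there. All 6 were lower in TAN, and the median log2 difference was -1.40 against 0.00 over all genes there. Atf3, a stress-induced factor, was at 323, 99.4, 190 and 125 CPM in Ad-Lib and at 41.3, 34.3, 39.7 and 26.4 CPM in TAN libraries, without overlap. Its log2 difference was -2.20 ± 0.31 (edgeR adjusted p = 0.00438), and Fosb, an AP-1 subunit, differed by -2.13 ± 0.35 (edgeR adjusted p = 0.00546). Fos, Egr1, Nr4a1 and Dusp1 were the other called genes. The cell numbers, the stromal share and the marker genes of this gate are given above, and their part in these differences was not tested.

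In the Pecam1, C1qa and Pdgfra gates none of the 9 immediate early genes was called by either tool, and all differences were negative. An unadjusted p under 0.05 was reached by 3, 3 and 7, against 13.7%, 13.5% and 13.9% of all genes. TAN 6 had the lowest level of each of the 9 in the Pecam1 gate. Fos was at 838 CPM there, against 1878 to 2572 CPM in the other TAN and 1883 to 2744 CPM in the Ad-Lib libraries. In the Icam1/Col15a1 subset Fosb, Nr4a1 and Dusp1 were called (1.33% of all genes), and in the F3/Gdf10 subset Nr4a1 (1.03% of all genes). None was called in the Dpp4/Pi16 subset, where none had an unadjusted p under 0.05 and the median was -0.08, nor in the Cd79a gate, where 1 had such a p. In the Rgs5 gate none was called with edgeR and 1 with DESeq2, and 4 had an unadjusted p under 0.05, against 10.1% of all genes. In the test of the difference between lineages Atf3 was called among these 15 genes (edgeR adjusted p = 0.0393), against 2.79% of all genes.

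**Figure D4:**
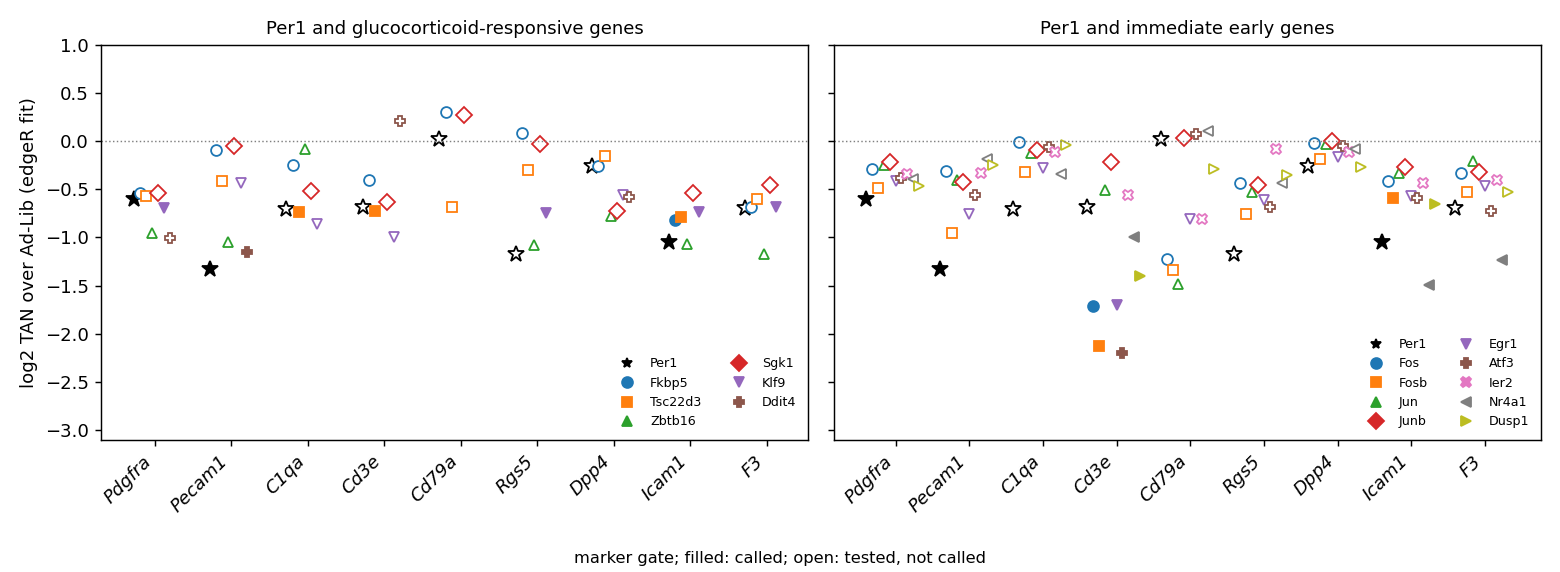
Log2 of TAN over Ad-Lib from the edgeR fit on the vertical axis for Per1 (stars) beside glucocorticoid-responsive genes (left) and immediate early genes (right) in 6 lineages and 3 subsets of the Pdgfra gate, 4 libraries per group. Filled symbols were called and open ones tested without a call, and the lowest values are those of Atf3 (-2.20) and Fosb (-2.13) in the Cd3e gate.

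The genes most like Arntl, Dbp and Per1 were sought over 48 points, 6 lineages in each of 8 libraries, as log2(CPM + 1) centred within a lineage, among 5181 genes with a mean of at least 10 CPM in every lineage. The points of a library share its source, depth and free RNA, so the correlations are a description. For Arntl the highest Pearson correlations were those of Ik and Ewsr1 (0.64 each), Maz, Tcf12 and Ccnl1 (0.63 each). For Dbp they were Minpp1 (0.61), Tceanc2 (0.60), Cog8 (0.59), Ptbp2 (0.57) and Nit1 (0.55). For Per1, added after its values were seen, they were Ccnl1 (0.75), Wsb1, Mlxip and Klf9 (0.74 each) and Litaf (0.73).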

How the data were processed

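The authors deposited raw counts of UMIs per gene and cell barcode, a table per library, made with Cell Ranger on mm10 (GRCm38). The file headers name version 6.0.1 and the processing notes version 3.0.2, and which is right is not known. No normalization had been applied. Cells with 700 to 30000 UMIs, 200 to 8000 genes and at most 10% mitochondrial UMIs were kept. A gated cell had at least 1 UMI of its marker and 0 of the other 5. A Pdgfra cell joined the subset whose marker pair had the most UMIs, at least 2. No doublet caller was run. Asking for 0 UMIs of other markers removes doublets between lineages in part.

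UMIs were summed per library and gate (at least 10 cells) and fitted with edgeR 4.0.16 in R 4.3.3 (TMM, filterByExpr, quasi-likelihood test, Benjamini-Hochberg over all genes), with DESeq2 1.42.0 as an alternative. The standard error is the log2 difference over the root of its F value. Differences between lineages were tested over 6 lineages and 8 libraries with library as a block. GENCODE M21 matched 32158 of 32285 identifiers. Libraries differed in depth, so low members rest on few UMIs, and intervals from counts of 0 (3 UMIs) cover counting error only.

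The rule named all members, genes of the other clock, glucocorticoid and immediate early lists that were called, and the 5 genes most like Arntl and Dbp. Rora, Nfil3, Npas2 and the 5 genes most like Per1 fall outside it and were chosen after their values were seen. Members and lists were chosen with earlier results of these data known. Alternatives were upper-quartile scaling, no filter, 2 marker UMIs, other markers allowed, a mitochondrial limit of 20%, no minimum change, exclusive subset markers and each library left out.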

Additional observations from a re-analysis of the deposited data

Results flagged for a closer look

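Of 120 groups of 4 libraries (10 members, 6 lineages, both feeding groups), 5 held a library far from the other 3, where chance gives about 1 in 20. Arntl in the Pdgfra gate was at 4.47 CPM in Ad-Lib 7 and 1.81 to 2.00 CPM in the other Ad-Lib libraries. Clock in the C1qa gate was at 50.6 CPM in TAN 8 and 37.1 to 38.4 CPM in the other TAN libraries. Per3 in the C1qa gate was at 39.1 CPM in Ad-Lib 3 and 46.0 to 46.9 CPM in the others. Nr1d1 in the Cd79a gate was at 9.36 CPM in Ad-Lib 7, which was 1 UMI, and at 0 in the other Ad-Lib libraries, where a count of 0 allows up to 11.7, 1.71 and 15.5 CPM in Ad-Lib 1, 3 and 5. Tef in the Cd3e gate was at 23.6 CPM in TAN 8 and 9.03 to 10.7 CPM in the other TAN libraries. The effect of TAN feeding on Per2 differed between lineages by the test of the lineage-by-TAN terms (edgeR adjusted p = 0.0136), with the lowest difference in the Pecam1 gate, and the call was lost without the Cd3e gate (edgeR adjusted p = 0.0961).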

How the results depend on the processing

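Of 1321 values of single members under the alternatives, 1298 kept their side of the threshold, 9 fell below it and 14 rose above it, these changes being those of Per1 and Per2 given in the report. The log2 difference took the other sign in 53, none of them called, among them Arntl in the C1qa gate and Nr1d1 in the Pecam1 gate. Without a filter on low counts, genes called changed from 103 to 206 in the Pdgfra gate, 65 to 161 in Pecam1, 21 to 71 in C1qa, 432 to 1126 in Cd3e, 0 to 11 in Cd79a, 57 to 225 in Rgs5, 35 to 151 in Dpp4/Pi16, 138 to 251 in Icam1/Col15a1 and 103 to 277 in F3/Gdf10, and from 358 to 725 for the difference between lineages. With 2 UMIs of the marker they were 115 in Pecam1, 57 in C1qa, 88 in Rgs5 and 17 in Dpp4/Pi16. With other markers allowed they were 56 in Pdgfra, 31 in Pecam1 and 125 in Rgs5. DESeq2 called 146 in Pecam1 and 46 in C1qa, no minimum change gave 184 in Pdgfra, exclusive subset markers gave 51 in Icam1/Col15a1 and 13 in F3/Gdf10, and 582 genes differed between lineages without the Cd79a gate and 42, with 0 members, without the Cd3e gate, an alternative chosen after seeing the data. Beyond the construction of each alternative, the cause was not tested.

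Members called rose from 0 to 1 in C1qa (DESeq2, no filter, 2 UMIs), Rgs5 (no filter, other markers allowed, mitochondrial limit 20%) and F3/Gdf10 (no filter, 2 UMIs), and fell from 1 to 0 in Icam1/Col15a1 with exclusive subset markers, where Per1 was too low to test. For the difference between lineages they rose from 1 to 2 with no filter, 2 UMIs, other markers allowed and the limit of 20%.

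With 1 library left out, genes called ranged from 31 (without TAN 2) to 142 (without TAN 6) in Pdgfra, 19 (without Ad-Lib 7) to 169 (without TAN 2) in Pecam1, 6 (without TAN 4) to 26 in C1qa, 154 (without Ad-Lib 1) to 994 (without Ad-Lib 3) in Cd3e, 7 (without Ad-Lib 7) to 50 in Rgs5, 3 (without TAN 4) to 73 (without TAN 6) in Dpp4/Pi16, 68 (without TAN 2) to 147 in Icam1/Col15a1 and 40 (without TAN 2) to 119 in F3/Gdf10. They stayed at 0 in Cd79a, and 103 (without Ad-Lib 7) to 803 (without Ad-Lib 3) genes differed between lineages. Members called ranged from 0 to 1 in Pdgfra, Pecam1, Cd3e, F3/Gdf10 and the difference between lineages, and were 1 throughout in Icam1/Col15a1 and 0 in the other gates.

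No paired analysis was possible because the feeding groups share no replicate numbers. Depth limits low members, and 12 of the 90 member and population pairs had too few counts to be tested.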
